A study of Mus musculus with 6 samples.

Results

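Cytosolic RNA sensing genes were followed here as a set of 10 genes among the 20788 that were listed in at least 1 of 6 libraries from the mouse B16 melanoma line. They were selected by gene name, with earlier results of these data known, so the choice was not blind to the values. The genes are Ddx58, Ifih1, Dhx58, Mavs, Tlr3, Tbk1, Irf3, Irf7, Eif2ak2 and Adar. The name of each was found once in every one of the 6 tables of values.

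B16 is a pigmented melanoma line from C57BL/6 mice. The study had sorted subclones of it into Tyr-H cells, with high tyrosinase activity and use of tyrosine for melanin, and Tyr-L cells, with low activity, and sequenced the mRNA of both. Each group had 3 libraries, and both groups were grown in low-glucose DMEM with serum and received no agent. Neither the labels nor the methods say how many clones a group held or whether its 3 libraries came from separate cultures, so the p-values measure only the spread between these libraries, which may be technical. Values were deposited as FPKM, the fragments of a gene per kilobase of transcript and per 1000000 mapped fragments. FPKM is a level relative to all mRNA of a library, and in such bulk samples fewer expressing cells and less RNA per cell cannot be told apart.

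RNA that carries marks of a virus, such as long double strands or an uncapped end, is recognized in the cytosol by the RIG-I-like receptors, a family of RNA helicases. RIG-I, the product of Ddx58, and MDA5, the product of Ifih1, pass the signal to the mitochondrial adaptor MAVS, through which the kinase TBK1 activates the transcription factors IRF3 and IRF7 and interferon genes are switched on. Double-stranded RNA is also read by TLR3 in endosomes and by the kinase PKR, the product of Eif2ak2, which halts translation, while the editing enzyme ADAR marks the cell's own double-stranded RNA so that it is not taken for foreign. Several of these genes are themselves induced by interferon.

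The libraries matched their labels in the gene they were named for. Tyr, which encodes tyrosinase, lay between 9.52 and 10.7 FPKM in Tyr-L and between 19.7 and 23.8 FPKM in Tyr-H. The 8 melanocyte lineage markers examined each averaged at least 1 FPKM, and their summed level was 7370 to 7690 FPKM in Tyr-L and 5450 to 5970 FPKM in Tyr-H. Of 10 leukocyte markers, 7 were listed in no library, among them Ptprc, Itgam and Adgre1. The summed level of the list was 3.44 to 4.18 FPKM in Tyr-L and 4.44 to 4.83 FPKM in Tyr-H and came mostly from Cd68, with a mean of 3.93 FPKM. Of 5 endothelial markers 3 were unlisted, and the sum was at most 0.505 FPKM. The sum of 6 fibroblast markers was at most 1.19 FPKM, and that of 5 keratinocyte markers at most 0.249 FPKM. The files hold no read counts, and the steps between their lowest values gave a rough estimate of 18600000 to 21100000 fragments per library.

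Of the 10 genes, Ddx58 and Irf7 rose in Tyr-H cells. Both other RIG-I-like receptors and Tlr3 were higher by less than the fold threshold, Tbk1, Adar, Eif2ak2 and Irf3 were lower by less than it, and Mavs had nearly the same level in both groups. Differences were tested with limma on log2(FPKM + 0.1) over the 14336 genes that averaged 0.1 FPKM or more, and every one of the 10 genes passed that filter at more than 1 FPKM in each library. A gene was called, and is said to have risen or fallen, at a Benjamini-Hochberg adjusted p of at most 0.05 together with a log2 fold change of at least 1 in either direction. By that rule 2 of the 10 genes were called higher, where 2.96% of all tested genes were, and 0 were called lower, where 5.78% of all tested genes were. On the adjusted p alone 5 were higher and 4 lower, beside 17.9% and 39.9% of all tested genes, and the 3 values of one group lay wholly above those of the other for 5 genes in the direction of Tyr-H and for 4 in that of Tyr-L, beside 20.2% and 43.8%. The median log2 fold change was 0.23 over the 10 genes and -0.15 over all tested genes. An exact permutation test of 3 libraries against 3, two-sided, cannot give a p below 0.1, and it gave 0.1 for the mean FPKM of 9 genes and 0.9 for Mavs.

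**Figure D1:**
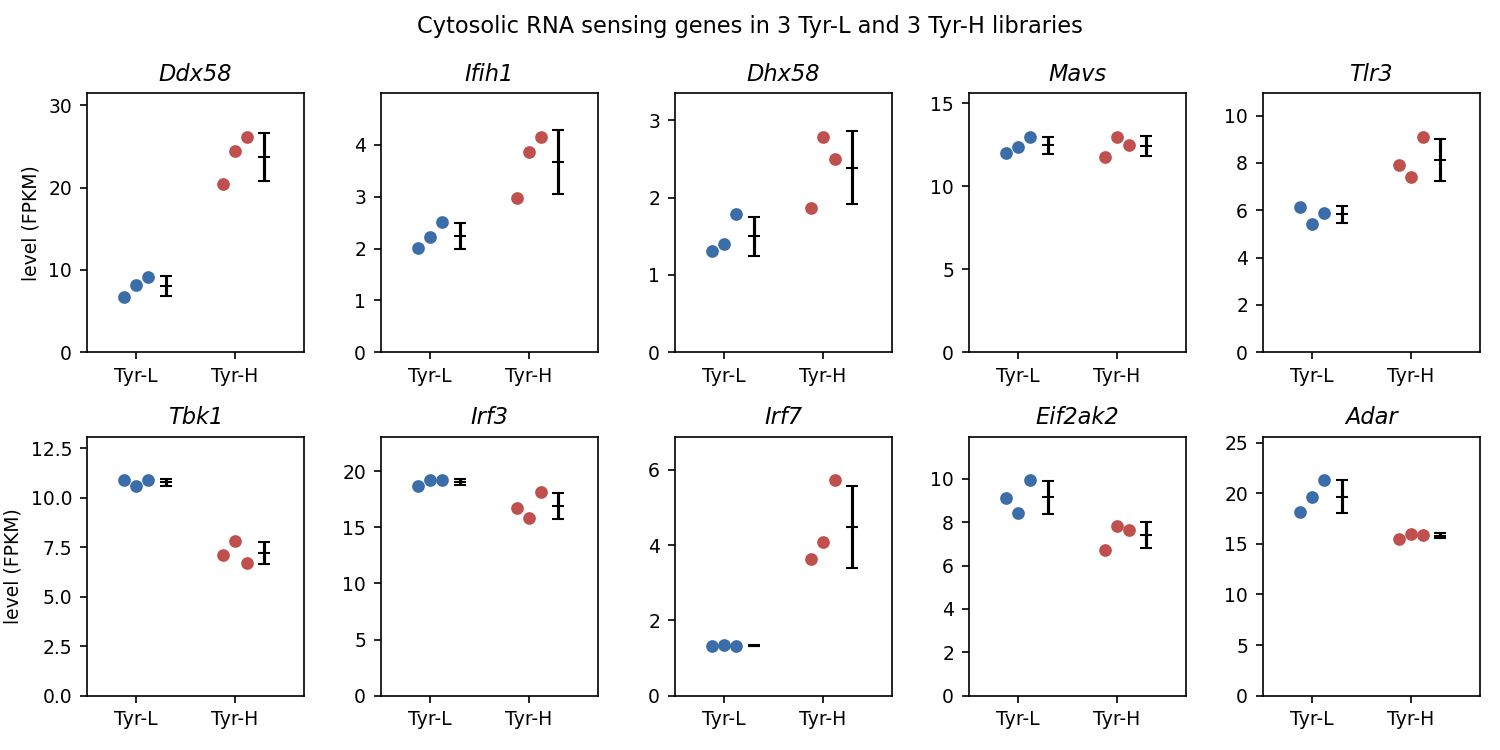
Level of each of the 10 genes in FPKM (vertical axes, each from 0) in the 3 Tyr-L libraries (blue points) and the 3 Tyr-H libraries (red points), with the mean and SD of each group as a black bar. The points of the groups are apart for every gene but Mavs, and the gap is widest relative to the level for Ddx58 and Irf7.

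Among the receptors that signal through MAVS, Ddx58 had the highest level and the largest difference. Ddx58 (ENSMUSG00000040296, chr4:40203773-40239828 of GRCm38, minus strand) had 6.69, 8.18 and 9.12 FPKM in Tyr-L libraries 1 to 3 and 20.5, 24.5 and 26.2 FPKM in Tyr-H libraries 1 to 3. The lowest Tyr-H library stood well above the highest Tyr-L library. The means were 8.0 ± 1.23 FPKM (SD, n = 3) and 23.7 ± 2.91 FPKM (SD, n = 3), and the log2 fold change was 1.56 (SE 0.12, limma adjusted p = 6.2e-06), which 1.23% of the tested genes exceeded. By the estimated depth and the longest annotated transcript, about 500 to 2006 fragments per library lay behind these values.

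Ifih1 (ENSMUSG00000026896, chr2:62595798-62646255, minus strand) encodes MDA5, which binds long double-stranded RNA. Its level was 2.01, 2.23 and 2.51 FPKM in Tyr-L and 2.97, 3.87 and 4.16 FPKM in Tyr-H. The groups did not overlap, and the difference was smaller than that of Ddx58. Its log2 fold change of 0.67 (SE 0.14, limma adjusted p = 0.0029) was below the fold threshold.

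Dhx58 (ENSMUSG00000017830, chr11:100694884-100704271, minus strand) encodes LGP2, which lacks the signalling domains of the other receptors and modulates them. It was the lowest of the receptors, with 1.31, 1.4 and 1.79 FPKM in Tyr-L and 1.87, 2.79 and 2.5 FPKM in Tyr-H. Tyr-H library 1 lay just above the highest Tyr-L library. Its log2 fold change was 0.63 (SE 0.18, limma adjusted p = 0.013), and it was 0.51 with an adjusted p of 0.054 when Tyr-H library 2 was left out. Only about 61 to 142 fragments per library lay behind Dhx58, the fewest of the 10 genes.

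The balance between the receptors could be compared within each library, where scaling cancels. The ratio of Ddx58 to Ifih1, as a ratio of FPKM, was 3.33, 3.67 and 3.63 in Tyr-L and 6.91, 6.35 and 6.29 in Tyr-H. It was thus higher in every Tyr-H library (3.55 ± 0.185 and 6.52 ± 0.34, SD, n = 3, exact permutation p = 0.1). The ratio of Ddx58 to Dhx58 was 5.35 ± 0.434 in Tyr-L and 10.1 ± 1.14 in Tyr-H, again without overlap. The ratio of Ifih1 to Dhx58 was 1.53, 1.59 and 1.4 in Tyr-L and 1.59, 1.39 and 1.66 in Tyr-H, and here the groups overlapped (exact permutation p = 0.8). Ratios of Irf7 to Irf3, of Ddx58 to Mavs and of Tbk1 to Mavs are given with those genes, and none of the ratios could pass an exact test at 3 libraries against 3.

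The start regions of these genes are shown because interferon-induced genes are known for a short element there, the interferon-stimulated response element, on which STAT and IRF factors bind. A core of this element, GAAANNGAAA on either strand, was searched in the promoters of a RefSeq table on GRCm38.p6 that covers 250 bases before to 50 bases after each start. The table held 9 of the 10 genes, and Dhx58 was the other. The core stood in 3 of the 9, Ddx58, Ifih1 and Eif2ak2, and in 3.44% of all 32851 promoters. In Ddx58 it lay 3 to 12 bases after the start, in Ifih1 33 to 42 bases after it and in Eif2ak2 19 to 28 bases after it. The sequences below run 5′ to 3′ along the minus strand, on which all 4 genes lie, from 150 bases before to 50 bases after the start (Ddx58 chr4:40239776-40239975, Ifih1 chr2:62646206-62646405, Eif2ak2 chr17:78882523-78882722, Irf7 chr7:141266375-141266574). Capitals mark the core, and Irf7 is shown because it rose without these letters in the window.
Ddx58: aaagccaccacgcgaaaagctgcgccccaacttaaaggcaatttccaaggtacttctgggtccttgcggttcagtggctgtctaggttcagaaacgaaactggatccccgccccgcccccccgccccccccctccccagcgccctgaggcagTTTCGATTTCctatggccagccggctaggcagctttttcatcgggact
Ifih1: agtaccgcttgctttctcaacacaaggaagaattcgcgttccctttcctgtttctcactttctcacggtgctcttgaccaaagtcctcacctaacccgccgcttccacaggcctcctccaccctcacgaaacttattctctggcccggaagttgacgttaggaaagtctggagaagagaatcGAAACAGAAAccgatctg
Eif2ak2: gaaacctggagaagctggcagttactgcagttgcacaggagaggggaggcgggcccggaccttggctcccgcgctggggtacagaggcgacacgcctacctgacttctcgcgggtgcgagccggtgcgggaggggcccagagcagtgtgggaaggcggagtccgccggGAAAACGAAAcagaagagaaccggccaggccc
Irf7: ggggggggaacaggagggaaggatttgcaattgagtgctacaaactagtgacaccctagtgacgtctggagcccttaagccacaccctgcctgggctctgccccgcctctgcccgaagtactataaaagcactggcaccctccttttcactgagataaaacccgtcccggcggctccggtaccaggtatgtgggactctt

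Of the 3 genes with the core, Ddx58 and Ifih1 were higher and Eif2ak2 lower in Tyr-H. Of the 356 tested genes with the core in a promoter, 8.71% were called higher and 5.34% called lower, and their median log2 fold change was -0.05. Of all 9857 tested genes in the table, 3.16% were called higher. A gamma-activated site, TTCNNNGAA, another element of interferon-induced genes, stood in promoters of Adar and Eif2ak2 and in 8.3% of all promoters. The element CATGTG, one of those bound by the melanocyte factor MITF, stood in promoters of Adar and in 14.2% of all. A match is only a run of letters, and binding was not measured here.

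The adaptor that both signalling receptors use had nearly the same level in both groups. Mavs (ENSMUSG00000037523, chr2:131234063-131248025, plus strand) had 12, 12.4 and 13 FPKM in Tyr-L and 11.8, 13 and 12.5 FPKM in Tyr-H. The values of the groups overlapped. In limma its log2 fold change was -0.01 with a 95% interval from -0.13 to 0.12 (adjusted p = 0.91), and after median ratio scaling of the libraries it was 0.14. The ratio of Ddx58 to Mavs was accordingly higher in Tyr-H, at 1.91 ± 0.179 against 0.639 ± 0.0759 (SD, n = 3, exact permutation p = 0.1).

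The endosomal receptor TLR3 signals through the adaptor TRIF, independently of MAVS. Tlr3 (ENSMUSG00000031639, chr8:45395665-45411080, minus strand) was listed at 6.15, 5.43 and 5.88 FPKM in Tyr-L and at 7.89, 7.4 and 9.11 FPKM in Tyr-H. All Tyr-H libraries were above all Tyr-L libraries. The log2 fold change was 0.47 (SE 0.09, limma adjusted p = 0.0015), below the fold threshold.

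Below the adaptors, the kinase and the transcription factors differed in direction. Tbk1 (ENSMUSG00000020115, chr10:121546455-121586787, minus strand), whose product phosphorylates IRF3 and IRF7, had 10.9, 10.6 and 10.9 FPKM in Tyr-L and 7.12, 7.82 and 6.71 FPKM in Tyr-H. The Tyr-L libraries were nearly alike and all Tyr-H libraries lay below them. The log2 fold change was -0.58 (SE 0.07, limma adjusted p = 7.6e-05), short of the fold threshold, and 81.3% of the tested genes had a higher one. Relative to Mavs, the level was 0.867 ± 0.0374 in Tyr-L and 0.581 ± 0.0379 in Tyr-H (SD, n = 3, exact permutation p = 0.1).

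Irf3 (ENSMUSG00000003184, chr7:44997648-45002848, plus strand) encodes the factor that is present before infection and acts first. It had 18.7, 19.2 and 19.2 FPKM in Tyr-L and 16.7, 15.8 and 18.1 FPKM in Tyr-H. Tyr-H library 3 came near the Tyr-L values and the others were lower. The log2 fold change of -0.18 (SE 0.05, limma adjusted p = 0.021) was 0.02 below the median of all tested genes. Its adjusted p was above 0.05 in 7 of the 17 alternative analyses, 4 of which left out 1 library.

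Irf7 (ENSMUSG00000025498, chr7:141262706-141266481, minus strand) encodes the factor that interferon itself induces and that carries the response further. Its level was 1.32, 1.34 and 1.33 FPKM in Tyr-L, the lowest of the set there, and 3.64, 4.08 and 5.73 FPKM in Tyr-H. The Tyr-L libraries were almost equal, while Tyr-H library 3 stood above the other two. The means were 1.33 ± 0.00931 and 4.48 ± 1.1 FPKM (SD, n = 3), and the log2 fold change was 1.65 (SE 0.16, limma adjusted p = 2.3e-05), which 1.08% of the tested genes exceeded. It was larger than that of Ddx58 here, but smaller with a pseudocount of 1 FPKM (1.22 against 1.46) and without Tyr-H library 3 (1.47 against 1.49). Irf7 amounted to 0.0707, 0.0697 and 0.0693 of Irf3 in Tyr-L and to 0.218, 0.258 and 0.317 of it in Tyr-H. The level of Irf3 thus remained above that of Irf7 in all libraries.

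Unlike Tlr3, Eif2ak2 and Adar, whose products also act on double-stranded RNA, were both lower in Tyr-H, by less than the fold threshold. Eif2ak2 (ENSMUSG00000024079, chr17:78852564-78882573, minus strand), which encodes PKR, had 9.11, 8.42 and 9.94 FPKM in Tyr-L and 6.72, 7.84 and 7.66 FPKM in Tyr-H. The groups did not overlap, though Tyr-L library 2 and Tyr-H library 2 were close. The log2 fold change was -0.30 (SE 0.08, limma adjusted p = 0.012). It was -0.15 with an adjusted p of 0.14 after median ratio scaling, -0.14 with 0.18 after quantile normalization, and -0.24 with 0.053 without Tyr-L library 3.

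Adar (ENSMUSG00000027951, chr3:89715022-89753446, plus strand), which encodes the enzyme that turns adenosine into inosine in double-stranded RNA, was the highest of the set in Tyr-L. It had 18.1, 19.6 and 21.3 FPKM there and 15.5, 16 and 15.9 FPKM in Tyr-H. The Tyr-H libraries were nearly alike and below every Tyr-L library. The log2 fold change was -0.31 (SE 0.06, limma adjusted p = 0.0021), and it was -0.16 with an adjusted p of 0.057 after median ratio scaling.

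How far the 4 lower genes differed depended on the scaling of the libraries. Across the tested genes the median log2 fold change, -0.15 in the deposited values, was -0.01 after median ratio scaling or quantile normalization and -0.25 after rescaling to equal totals. Relative to the deposited median, the difference was 1.81 for Irf7, 1.71 for Ddx58, 0.83 for Ifih1, 0.78 for Dhx58, 0.63 for Tlr3 and 0.15 for Mavs. For Irf3 it was -0.02, for Adar and Eif2ak2 -0.15 each, and for Tbk1 -0.42. Over the 17 alternatives Ddx58 ranged from 1.44 to 1.71, Irf7 from 1.22 to 1.84 and Tbk1 from -0.68 to -0.42.

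**Figure D2:**
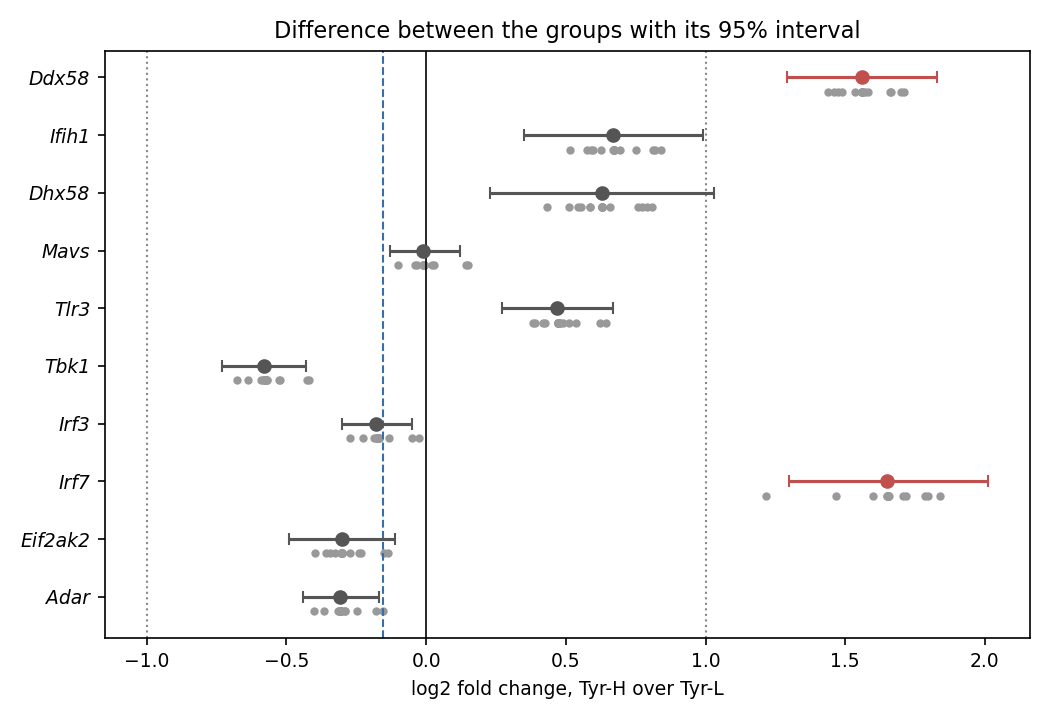
Log2 fold change of each gene, Tyr-H over Tyr-L (horizontal axis), with its 95% interval from limma on log2(FPKM + 0.1), red where the gene was called and dark grey elsewhere; small grey points are the 17 alternative analyses. The dashed line marks the median of all tested genes, -0.15, and the dotted lines the fold threshold, which Ddx58 and Irf7 passed with their whole intervals.

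Levels in FPKM take transcript length into account, so the genes can also be ranked against each other within a group. In Tyr-L the order began with Adar at 19.6 and Irf3 at 19.0 FPKM, whose libraries overlapped, followed by Mavs at 12.5 and Tbk1 at 10.8 FPKM. Eif2ak2 at 9.15 and Ddx58 at 8.0 FPKM overlapped as well, Tlr3 at 5.82 and Ifih1 at 2.25 FPKM stood apart from their neighbours, and Dhx58 at 1.5 and Irf7 at 1.33 FPKM overlapped at the bottom. In Tyr-H Ddx58 led at 23.7 FPKM, above the overlapping Irf3 and Adar at 16.9 and 15.8 FPKM and above Mavs at 12.4 FPKM. Tlr3, Eif2ak2 and Tbk1 followed between 8.13 and 7.22 FPKM, each overlapping the next, then Irf7 at 4.48 and Ifih1 at 3.66 FPKM, also overlapping, and Dhx58 at 2.38 FPKM. Ddx58 thus ranked below Mavs and Tbk1 in Tyr-L and above every other gene of the set in Tyr-H.

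**Figure D3:**
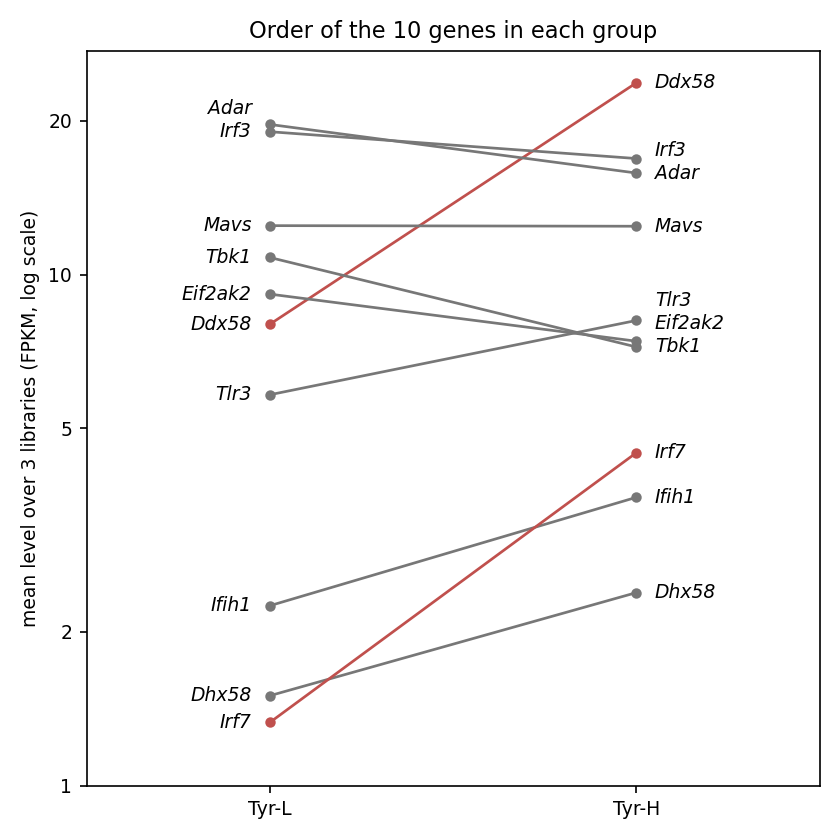
Mean level of each gene over 3 libraries (vertical axis, FPKM on a log scale) in Tyr-L (left) and Tyr-H (right), joined by a line that is red for the genes called higher. Ddx58 goes from 8.0 to 23.7 FPKM and crosses 5 other genes, and Irf7 goes from 1.33 to 4.48 FPKM and crosses Dhx58 and Ifih1.

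For some of these genes the value can hold reads of a neighbour, since the sources do not say whether strand was used in counting. In the GENCODE M21 annotation of GRCm38, 16.8% of the exon bases of Adar are shared with Chrnb2 on the opposite strand, which had 2.47, 2.64 and 3.02 FPKM in Tyr-L and 1.63, 1.79 and 1.97 FPKM in Tyr-H. Irf7 shares 1.19% of its exon bases with Phrf1, which was lower in Tyr-H (21.5 to 22.9 FPKM, against 26.5 to 26.7 FPKM), and Irf3 shares 2.56% with Bcl2l12. Tlr3 shares 7.32% with Gm45542, Dhx58 shares 4.31% with Dhx58os, and Eif2ak2 shares 3.4% with Gm26637 and 0.919% with n-R5s29. Ddx58, Ifih1, Mavs and Tbk1 overlap no other annotated gene. The part of such reads in the differences was not tested.

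The genes whose pattern over the 6 libraries was most like that of Ddx58 were Rsad2, Ifitm3 and Tnfaip2, by the root mean square difference of log2(FPKM + 0.1) centred on each gene's mean (0.073, 0.075 and 0.084, among 11016 genes that averaged 1 FPKM or more). Rsad2, which encodes the antiviral protein viperin, had 4.58, 5.94 and 6.04 FPKM in Tyr-L and 14.6, 15.3 and 18.5 FPKM in Tyr-H. Ifitm3, which encodes a membrane protein that blocks virus entry, had 33.0 to 38.5 FPKM and 89.3 to 125 FPKM. For Irf7 they were Nfkbie, Ifitm3 and the chemokine gene Cxcl10 (0.109, 0.117 and 0.123). Nfkbie, which encodes an inhibitor of NF-kappaB, had 1.76 to 2.14 FPKM in Tyr-L and 5.67 to 7.76 FPKM in Tyr-H. Likeness of this kind is mostly the difference between the groups, since each gene has only 6 values. Exons of Cxcl10 and Tnfaip2 overlap Art3 and Gm40578.

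The surrounding pathway was described by 14 lists with 173 further genes, of which 147 were listed and 139 were tested. Of these 139 genes, 14 (10.1%) were called higher in Tyr-H and 0 were called lower, beside the 2.96% and 5.78% of all tested genes, and their median log2 fold change was 0.03. The 14 lay in 9 of the lists, and none was in the lists of receptor activators, of signalling from MAVS to the IRFs, of endosomal RNA sensing, of RNA editing and double-stranded RNA binding or of interferons. With a pseudocount of 1 FPKM in place of 0.1, which shrinks the change of low genes, 6 of the 14 were still called. Those no longer called included Rnf125 (log2 fold change 0.49), Ddx60 (0.45), Oasl1 (0.56), Oasl2 (0.59), Aim2 (0.80), Ifi204 (0.51) and Ifi203 (0.23).

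Closest to the receptors, 0 of 12 tested activators were called and 1 of 16 tested brakes. That brake was Rnf125, a ubiquitin ligase that marks RIG-I and MDA5 for degradation, with 0.371, 0.713 and 0.345 FPKM in Tyr-L and 1.04, 1.16 and 1.01 FPKM in Tyr-H (log2 fold change 1.07, limma adjusted p = 0.0047). Its fold change was 0.95 without Tyr-L library 1 and 0.91 without Tyr-L library 3, both under the threshold. Of the 20 tested genes that carry the signal from MAVS to the IRFs 0 were called, and their fold changes lay between -0.52 and 0.29. Of the 7 tested genes of endosomal sensing 0 were called, and Tlr7 and Tlr8, the receptors for single-stranded RNA, were listed in no library. The genes of these lists with the highest mean over the 6 libraries differed little on the log2 scale, namely Ywhae by -0.17, Pcbp1 by -0.27, Tab2 by 0.17 and Hsp90b1 by -0.44.

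Among effectors that bind or cut RNA, 3 of 10 tested genes of the OAS and RNase L pathway rose. Oas1a, which makes the messenger that activates RNase L, had 2.36, 2.7 and 3.28 FPKM in Tyr-L and 5.26, 7.29 and 8.07 FPKM in Tyr-H (log2 fold change 1.26, limma adjusted p = 1.6e-04). Oasl1 and Oasl2, relatives of it, had fold changes of 1.27 and 1.07 at means of 0.991 and 1.51 FPKM in Tyr-H, and that of Oasl2 was 0.89 without Tyr-H library 3. Of 4 tested IFIT genes, whose products bind foreign RNA ends, Ifit3 rose from 4.37 ± 0.221 to 10.0 ± 2.34 FPKM (log2 fold change 1.16, limma adjusted p = 8.6e-05, and 0.98 without Tyr-H library 3), while Ifit2, the highest of them by its mean over the 6 libraries, was at 9.4 FPKM in Tyr-H against 12.3 in Tyr-L. These genes have close paralogs, among which the counting could have split reads. Of 14 RNA clearance genes 1 rose, the exonuclease gene Isg20 from 0.566 ± 0.195 to 3.01 ± 0.865 FPKM (log2 fold change 2.23, limma adjusted p = 8.4e-05). Of 11 other helicases 1 rose, Ddx60 from a mean of 0.301 to 0.775 FPKM (1.15, limma adjusted p = 0.0026, and 0.97 without Tyr-L library 2). On the adjusted p alone 8 of these helicases were lower and 2 higher, beside 39.9% and 17.9% of all tested genes. The median log2 fold change of the helicase list was -0.39. Of 9 genes of RNA editing and double-stranded RNA binding 0 were called. By the same mean over the 6 libraries, the highest genes of the lists without an example so far differed by -0.13 (Abce1), -0.25 (Wdr61), -0.15 (Ddx3x) and -0.48 (Ilf2) on the log2 scale.

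Among the other interferon regulatory factors, Irf5 rose as Irf7 did. It had 0.0956, 0.0569 and 0.146 FPKM in Tyr-L and 1.65, 0.874 and 1.32 FPKM in Tyr-H (log2 fold change 2.77, limma adjusted p = 3.6e-05). Its Tyr-L values lay around the 0.0634 to 0.072 FPKM that 3 fragments would give, so the fold change depends on the pseudocount (1.04 with 1 FPKM and 3.59 with 0.01 FPKM), and 14.1% of its exon bases are shared with the abundant Tnpo3. The highest gene of that list by the mean over the 6 libraries, Irf2bp1, differed by -0.32 on the log2 scale. Of the 8 genes of the interferon receptor and of ISGF3, Usp18, which dampens receptor signalling, rose from 1.95 ± 0.427 to 8.65 ± 1.52 FPKM (log2 fold change 2.10, limma adjusted p = 1e-05).

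Beside PKR stood Ppp1r15a, which rose in Tyr-H. It encodes GADD34, which directs a phosphatase to the eIF2α that PKR and its relatives phosphorylate. It had 2.77, 4.07 and 2.9 FPKM in Tyr-L and 24.7, 28.4 and 31.0 FPKM in Tyr-H, so that the groups were far apart (log2 fold change 3.09, SE 0.14, limma adjusted p = 4e-07). The other 9 tested genes of that list, among them the other eIF2 kinases and Npm1, the highest by the mean over the 6 libraries (-0.18 on the log2 scale), were not called.

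Among 10 tested genes of cytosolic DNA sensing, Aim2, Ifi204 and Ifi203 rose, all at low levels, while the abundant Banf1 differed by 0.23 on the log2 scale. Aim2, a sensor of double-stranded DNA, had 0.0998, 0.0193 and 0 FPKM in Tyr-L and 0.775, 0.973 and 0.686 FPKM in Tyr-H. The value that 3 fragments would give Aim2 was about 0.0501 to 0.0568 FPKM, so that Tyr-L lay around that limit, and the fitted log2 fold change of 2.76 depends on the pseudocount (0.80 with 1 FPKM and 4.68 with 0.01 FPKM). Ifi204 had 0.056 to 0.0857 FPKM and 0.433 to 0.571 FPKM. Ifi203 had 0.0428 to 0.162 FPKM and 0.191 to 0.332 FPKM, and its adjusted p, 0.026, was 0.073 to 0.089 without Tyr-L library 1 or 2 or Tyr-H library 2 or 3. These 3 genes and Irf5 were tested only because of their level in Tyr-H, since their Tyr-L means were under 0.1 FPKM.

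Interferon transcripts themselves were at the limit of detection. Of 20 type I and type III interferon genes 17 were listed in no library and 0 passed the filter. Ifnb1, which encodes interferon beta, was listed in 1 library, Tyr-H library 1, at 0.0607 FPKM, where 3 fragments would give about 0.19 to 0.215 FPKM. Ifnk was listed only in Tyr-L library 2 at 0.0595 FPKM, and Ifnz in 5 libraries at no more than 0.13 FPKM. A difference in interferon transcripts was therefore not detectable at this depth.

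**Figure D4:**
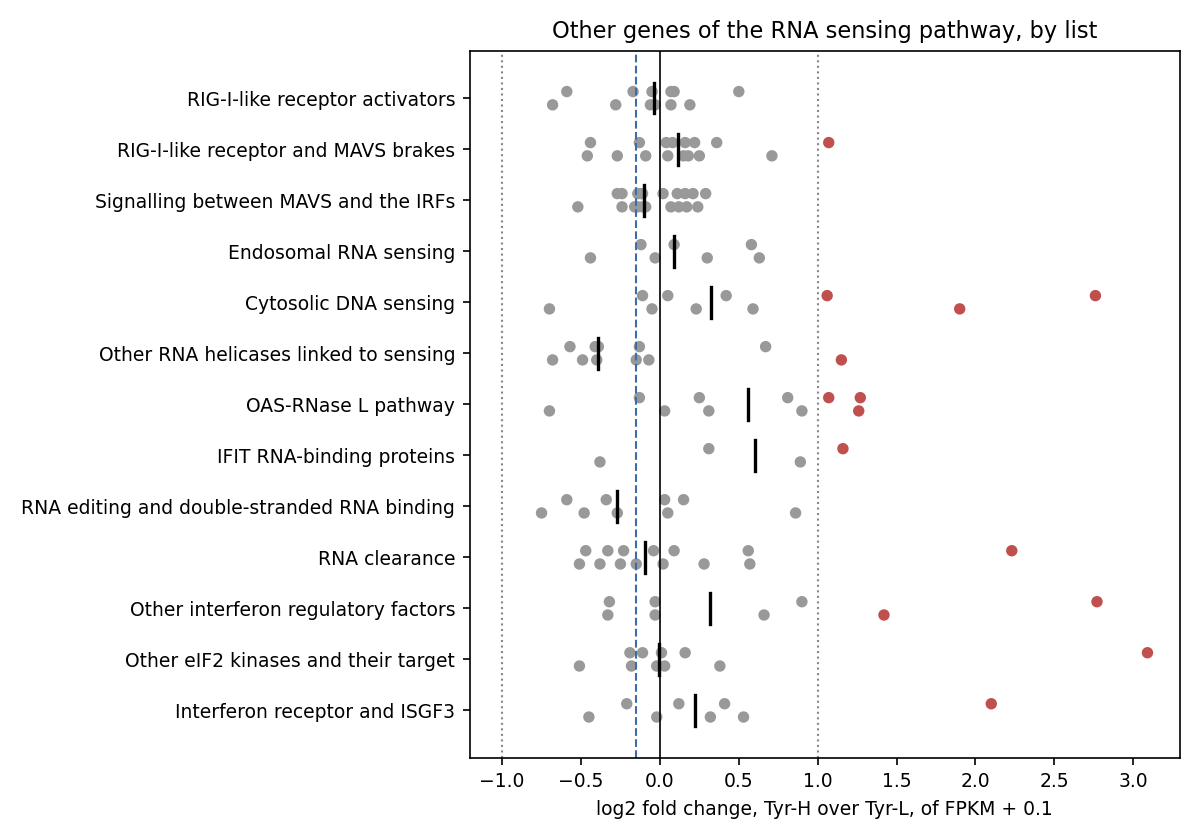
Log2 fold change of FPKM + 0.1, Tyr-H over Tyr-L (horizontal axis), of the 139 tested genes of the pathway lists (1 point per gene, red where called higher), with the median of each list as a black bar. The dashed line marks the median of all tested genes, -0.15, and the dotted lines the fold threshold; the 14 red points lie right of the upper threshold, and no point lies left of the lower one.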

How the data were processed

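RNA of 3 Tyr-L and 3 Tyr-H B16 libraries, grouped by the submitters' labels, had been extracted with TRIzol, made into libraries with a VAHTS mRNA-seq v2 kit and sequenced as read pairs of 150 bp on an Illumina HiSeq instrument. The authors deposited FPKM per gene and library, normalized for transcript length and depth. The submitters' processing notes name Trimmomatic, HISAT2, HISAT and GRCm38.p6, and the quantifier, the annotation and the use of strand are not given in the sources used here. A gene not listed in a library was taken as 0.

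Depth is not given as counts. It was estimated from the steps between the lowest values of genes with 1 transcript of at least 1500 nt, and limits from it are approximate and cover counting error only. Coordinates, counted from 1, and overlaps came from GENCODE M21, with 20709 of 20788 identifiers found, and promoters from RefSeq (GRCm38.p6). Among the other genes named, exons of Wdr61, Banf1 and Hsp90b1 overlap those of Dnaja4, Eif1ad and 1810014B01Rik on the opposite strand, so their values are uncertain.

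Differences were fitted with limma 3.58.1 in R 4.3.3 (lmFit, eBayes with a variance trend, two-sided) on log2(FPKM + 0.1), without a block for the replicate number, and the procedure was tested on simulated data. Fold changes on this scale understate those of low genes. Other steps used Python 3.11.15, pandas 2.3.3, numpy 2.4.6 and matplotlib 3.10.9. Single values had an exact permutation test (scipy 1.17.1).

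The genes, the pathway and marker lists and the tests were chosen with earlier results of these data known. All 10 genes were named, with every called gene of a list, the gene of each list with the highest mean over the 6 libraries, the 3 genes most like each called gene, and genes that overlap them; Tlr7, Tlr8, Ifnb1, Ifnk and Ifnz were named after their values were seen. The 17 alternatives were pseudocounts of 0.01 and 1, no filter, a mean of at least 1 FPKM, 3 scalings, 2 variance estimates, the replicate block, no fold threshold and each library left out. They were extended to the pathway lists after seeing the data. Results for some genes of the lists are not reported here. A planned comparison of protein sequences was not run.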

Additional observations from a re-analysis of the deposited data

How the results depend on the processing

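Ddx58 and Irf7 were called higher and 0 of the 10 genes lower under the 16 alternatives that kept the fold threshold. Without that threshold the genes past the adjusted p were 5 higher and 4 lower, since Ifih1 (0.67), Dhx58 (0.63), Tlr3 (0.47), Eif2ak2 (-0.30), Adar (-0.31), Irf3 (-0.18) and Tbk1 (-0.58) then passed. The genes called over all tested genes, 425 higher and 829 lower, numbered 2570 and 5722 without the threshold, 185 and 203 with a pseudocount of 1, and 247 and 393 at a mean of at least 1 FPKM, where 11026 genes were tested. The share of calls that were higher, 33.9%, was 47.7% with that pseudocount, 47.6% after median ratio scaling (537 and 591), 55.3% after quantile normalization (611 and 494) and 25.5% after rescaling to equal totals (403 and 1175). The median of the 10 genes, 0.23, was 0.38, 0.40 and 0.14 after those scalings, in that order, and 0.19 to 0.26 with a library left out. Mavs turned from -0.01 to 0.14 (limma adjusted p = 0.05) and 0.15 (adjusted p = 0.043) after median ratio and quantile scaling, was -0.10 (adjusted p = 0.19) after rescaling to equal totals, and lay between -0.0385 and 0.0279 with a library left out. The cause was not tested.

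In the pathway lists 14 genes were called higher. They numbered 6 with a pseudocount of 1, 7 at a mean of at least 1 FPKM, where low genes were not tested, 18 and 19 after median ratio and quantile scaling, and 11 to 16 with a library left out. Without the fold threshold 46 were higher and 44 lower.

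Libraries with the same replicate number did not deviate together (correlations of 0.022, 0.013 and -0.083), and pairs with different numbers gave -0.106 to 0.092. With 3 libraries per group such correlations cannot tell whether libraries with the same number shared a culture or batch. With a replicate block 430 genes were called higher and 828 lower, 2 and 0 of the 10 genes, and 14 and 0 of the list genes. Depth limits Dhx58 and Irf7 in Tyr-L most among the 10 genes.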
